A study of Homo sapiens with 16 samples.

Results

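Transcript levels of 8 genes that build non-essential amino acids, PHGDH, PSAT1, PSPH, ASNS, ALDH18A1, PYCR1, GPT2 and GOT1, were followed in 2 human melanoma cell lines. The members were taken by symbol and matched to Ensembl identifiers in the count tables of both lines. All 8 matched, of 60676 identifiers in the tables, and all 8 were among the 21569 genes that passed the filter on low counts. The study examined what happens to melanoma cells when homocysteine replaces methionine in the medium. Its 16 libraries came from A101D, labelled as methionine dependent, and MeWo, labelled as methionine independent, with 8 libraries per line. The growth protocol names 2 media on a shared base, a control with methionine at 200 µM and one without methionine but with homocysteine at 200 µM. No label says which library came from which medium. The libraries of each line were therefore set in groups by their replicate numbers alone, 1-4 and 5-8, with n = 4 in each, and neither group is called a medium. The labels do not say whether the replicates were separate cultures, so the p-values measure only the spread between these libraries, which may be technical.

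Serine is made from the glycolytic intermediate 3-phosphoglycerate in a chain of reactions catalysed by PHGDH, PSAT1 and PSPH, and it supplies glycine and one-carbon units. ASNS transfers an amide group to aspartate to give asparagine. GOT1 and GPT2 are aminotransferases that exchange amino groups between glutamate and aspartate or alanine, while ALDH18A1 and PYCR1 act at the start and the end of proline synthesis. Several of these genes are textbook targets of ATF4, a transcription factor whose translation rises when amino acids are scarce or the endoplasmic reticulum is stressed. Homocysteine condenses with serine in transsulfuration, and its remethylation to methionine uses one-carbon units that serine can supply.

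Levels are given in CPM, counts per 1e6 counts of the library after scaling by TMM, the trimmed mean of M-values. Libraries held 28910881 to 38961862 counts. Of 6 melanocyte lineage markers, summed levels were 1483 to 1594 CPM in A101D replicates 1-4, 1231 to 1324 CPM in 5-8 and 7584 to 8708 CPM over the MeWo libraries. In A101D, MITF, MLANA and S100B were lower in 5-8 (log2 differences -0.60, -0.79 and -0.41), and SOX10 (-0.14) and PMEL (0.17) were called with differences near the 0.161 by which scaling to total counts moves the median of all genes. SOX10, MITF, PMEL and S100B were above 100 CPM in the group means of both lines, but MLANA was at 30.2 and 17.4 CPM and TYR at 1.42 and 1.62 CPM in the A101D groups. Epithelial markers summed to at most 4.18 CPM and blood markers to at most 3.45 CPM in any library, with HBB at 0 throughout. The epithelial sum in A101D went from 1.53-1.56 CPM in replicates 1-4 to 3.80-4.18 CPM in 5-8. Both epithelial markers that were tested, KRT14 and CDH1, were called higher there (log2 differences 1.67 and 1.20). Endothelial markers in A101D, mostly VWF, went from 3.81-4.86 CPM in replicates 1-4 to 14.9-19.4 CPM in 5-8. The summed fibroblast markers in A101D, nearly all COL1A2, went from 929-1051 CPM to 568-633 CPM. DCN and LUM were called higher in A101D replicates 5-8 (log2 differences 2.30 and 0.60), at group means of at most 2.05 CPM, and COL1A1 was not called. In MeWo the sum was between 73.8 and 84.7 CPM and was mostly LUM, with COL1A2 at 0.489 and 0.331 CPM in the group means. In A101D all 10 listed proliferation genes were lower in replicates 5-8, at summed levels of 249 to 263 CPM against 998 to 1034 CPM in 1-4. In MeWo 3 of the 10 were lower, and the summed levels were 1859 to 1885 CPM in 5-8 against 1817 to 1995 CPM in 1-4. Scaled to total counts, 3 were lower and 2 higher in MeWo. Of all 21569 tested genes, 7720 were called lower in A101D replicates 5-8 and 1835 in those of MeWo. The part of these shifts in the results below was not tested, and in bulk RNA fewer cells of a kind and less RNA per cell cannot be told apart.

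Sequence upstream of the genes was available, from RefSeq (GRCh38.p14), for PHGDH, PSAT1, ASNS, ALDH18A1 and GOT1, which is 5 of the 8. PSPH, PYCR1 and GPT2 have none here. The 250 bases before each annotated start were searched on both strands for TGATGNAA, the core of the composite element that C/EBP and ATF proteins such as ATF4 are known to bind. The motif occurred in 1104 of 35116 upstream windows of all genes (3.14%) and in windows of 2 members, ASNS and GOT1. ASNS has a further annotated start, whose window (chr7:97872166-97872415, minus strand) held no match. The windows of PHGDH, PSAT1 and ALDH18A1 held none either. The stretches around both matches are shown because ASNS and GOT1 were among the genes with large differences in A101D, with the match in capitals and the transcribed direction read 5′ to 3′. The ASNS stretch lies at chr7:97872458-97872487 on the minus strand and its match begins 68 bases before the start, and the GOT1 stretch lies at chr10:99430804-99430833 on the minus strand with its match, read on the opposite strand, 198 bases before the start. These starts are those of RefSeq, for ASNS that of the window with the match. Both stretches lie inside the gene spans that GENCODE gives, so by that annotation they are not upstream of the whole gene. Of the 250 window bases, 134 in the ASNS window with the match and all 250 for GOT1 are within GENCODE exons. Those exons were counted for any gene on either strand.
ASNS: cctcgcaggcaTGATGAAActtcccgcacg
GOT1: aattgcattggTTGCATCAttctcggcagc
The window of PSAT1 (chr9:78296875-78297124, plus strand) and that of ALDH18A1 (chr10:95656712-95656961, minus strand) are shown for comparison, since PSAT1 was higher and ALDH18A1 lower in A101D replicates 5-8. Neither holds these letters, which says nothing of whether the factors bind there.
PSAT1: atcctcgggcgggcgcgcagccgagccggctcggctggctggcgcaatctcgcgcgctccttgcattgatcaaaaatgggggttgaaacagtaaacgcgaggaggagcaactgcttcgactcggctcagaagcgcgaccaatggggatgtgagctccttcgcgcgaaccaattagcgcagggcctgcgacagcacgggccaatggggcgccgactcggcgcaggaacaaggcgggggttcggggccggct
ALDH18A1: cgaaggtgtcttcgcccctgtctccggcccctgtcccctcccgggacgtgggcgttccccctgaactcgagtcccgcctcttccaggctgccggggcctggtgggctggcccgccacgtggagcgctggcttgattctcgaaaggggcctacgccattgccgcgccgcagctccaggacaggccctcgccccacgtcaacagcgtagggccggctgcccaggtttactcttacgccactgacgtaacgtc

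In A101D, 6 of the 8 genes were higher in replicates 5-8 than in 1-4, ALDH18A1 was lower and PYCR1 did not pass the test. The increases ran from 1.78-fold for PHGDH to 4.34-fold for ASNS. In MeWo, PSAT1, ASNS and GPT2 were higher in replicates 5-8, ALDH18A1 was lower, and the remaining 4 did not pass. The median log2 difference over the 8 genes was 1.14 in A101D, where that over all tested genes was -0.05, and 0.09 in MeWo, where that over all tested genes was -0.02. In A101D 7 of 8 members were called (limma, adjusted p under 0.05), beside 65.3% of all tested genes, and 6 were called higher, beside 29.6% of all tested genes. In MeWo 4 of 8 were called, beside 13.1% of all, and 3 were called higher, beside 4.59%. Of the genes called, 45.2% were higher in A101D replicates 5-8 and 35% in those of MeWo. With total counts only, which raise the A101D median of all genes by 0.161, these shares were 59.5% and 66.3%, and the MeWo share was 18.9% with upper-quartile factors. With total counts PHGDH, PSPH and GOT1 also passed in MeWo, making 7 called, and in a fit on MeWo alone PHGDH (0.10, adjusted p = 0.0331) and GOT1 (0.12, adjusted p = 0.0322) passed. Libraries of 5-8 and 1-4 did not overlap for 7 members in A101D (59.9% of all tested genes) and for 4 in MeWo (14.3%).

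**Figure D1:**
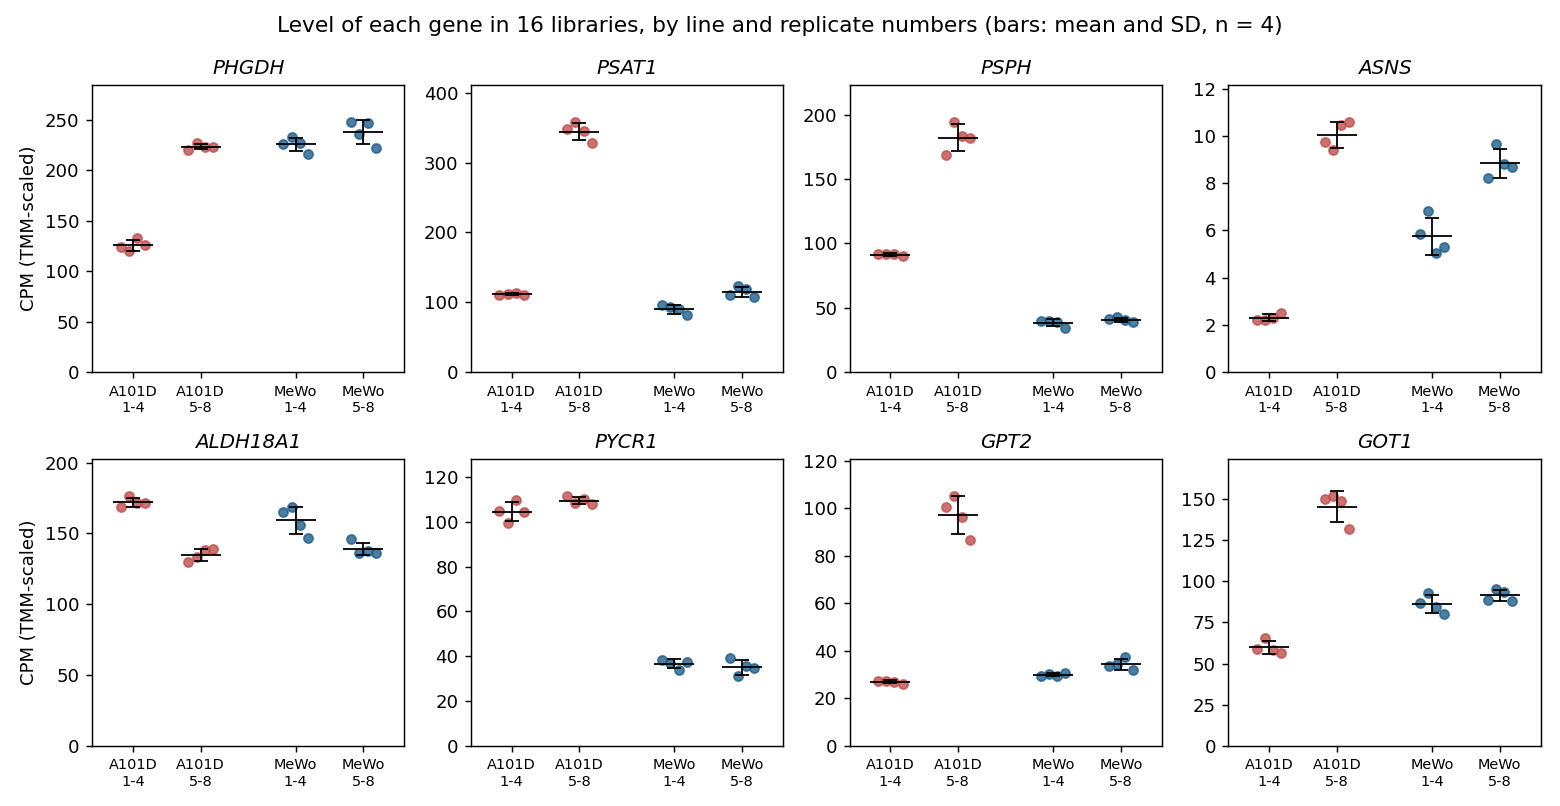
Level of each gene in CPM (vertical axes, linear, from 0) in each library of A101D (red) and MeWo (blue), replicates 1-4 and 5-8, with the mean and SD over 4 libraries in black. A101D replicates 5-8 lie above 1-4 without overlap for PHGDH, PSAT1, PSPH, ASNS, GPT2 and GOT1, and below them for ALDH18A1.

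PHGDH (ENSG00000092621, chromosome 1, 119648411 to 119744226, GRCh38) encodes phosphoglycerate dehydrogenase, which opens serine synthesis. In A101D it stood at 123, 120, 133 and 126 CPM in replicates 1 to 4 and at 220, 227, 222 and 223 CPM in replicates 5 to 8. In MeWo the values were 226, 233, 227 and 216 CPM in replicates 1 to 4 and 247, 235, 246 and 222 CPM in 5 to 8. All 4 A101D libraries of 5-8 were above all 4 of 1-4 and within the reach of the MeWo libraries, whose groups overlapped. The log2 difference in A101D was 0.83 ± 0.04 (SE, adjusted p = 1.24e-22), and in MeWo it was 0.07 ± 0.04 (adjusted p = 0.204).

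PSAT1 (ENSG00000135069, chromosome 9, 78297143 to 78330093), the aminotransferase of the second step, showed the widest gap in CPM of the serine genes. Its level in A101D was 110, 112, 113 and 110 CPM in replicates 1 to 4 and 348, 358, 344 and 328 CPM in 5 to 8. In MeWo it was 95.6, 93.7, 90.3 and 81.2 CPM in 1 to 4 and 110, 123, 119 and 108 CPM in 5 to 8. Neither line had overlapping groups. PSAT1 was 3.09-fold higher in A101D replicates 5-8 (log2 difference 1.63 ± 0.04, adjusted p = 8.07e-32) and 1.28-fold higher in those of MeWo (0.35 ± 0.05, adjusted p = 4.4e-07).

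PSPH (ENSG00000146733, chromosome 7, 56011051 to 56051604), the phosphatase that releases serine, was measured at 91.6, 91.5, 91.9 and 89.8 CPM in A101D replicates 1 to 4 and at 168, 194, 184 and 182 CPM in 5 to 8. MeWo gave 39.7, 39.9, 39.0 and 34.4 CPM in 1 to 4 and 41.3, 42.6, 40.5 and 38.7 CPM in 5 to 8. The A101D groups were far apart and the MeWo groups overlapped. The log2 difference was 1.00 ± 0.04 in A101D (adjusted p = 4.17e-24) and 0.09 ± 0.05 in MeWo (adjusted p = 0.249). A copy of the gene, PSPHP1, had 207 to 269 counts in each MeWo library and 0 to 2 in each A101D library, so reads of PSPH in MeWo may be divided between both loci and its level there is uncertain.

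ASNS (ENSG00000070669, chromosome 7, 97852118 to 97872542) encodes asparagine synthetase and had the largest fold difference of the 8 genes in A101D. Its level was 2.22, 2.19, 2.29 and 2.50 CPM in A101D replicates 1 to 4 and 9.73, 9.39, 10.5 and 10.6 CPM in 5 to 8. In MeWo it was 5.82, 6.83, 5.05 and 5.28 CPM in 1 to 4 and 8.202, 9.64, 8.81 and 8.67 CPM in 5 to 8. Neither line had overlapping groups, and A101D replicates 1-4 were the lowest of the 16 libraries. ASNS was 4.34-fold higher in A101D replicates 5-8 (log2 difference 2.12 ± 0.12, adjusted p = 3.08e-20) and 1.55-fold higher in those of MeWo (0.63 ± 0.09, adjusted p = 2.15e-06).

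The count of ASNS may not measure all of its RNA. Of its 4455 exon bases, 1985 (44.6%) are also exons of a readthrough gene on the same strand, ENSG00000284707, and how reads shared by both were counted is not stated in the sources used here. ENSG00000284707 had 12 to 29 counts in A101D replicates 1-4 and 54 to 86 in 5-8 (log2 difference 1.60 ± 0.22, adjusted p = 2.91e-08). The copy ASNSP1 had 2 to 11 counts in A101D replicates 1-4 and 38 to 60 in 5-8 (3.50 ± 0.39, adjusted p = 1.62e-10). In A101D both loci were thus higher in the same libraries as ASNS. In MeWo, where ASNS was also higher in 5-8, neither was called by limma. The log2 differences there were 0.32 ± 0.38 for ENSG00000284707 (adjusted p = 0.666) and 1.22 ± 0.66 for ASNSP1 (adjusted p = 0.244). ASNS itself rested on 63 to 82 counts per library in A101D replicates 1-4, the thinnest group of any member.

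GPT2 (ENSG00000166123, chromosome 16, 46884378 to 46931297) encodes the mitochondrial alanine aminotransferase. It was measured at 27.5, 27.2, 27.1 and 26.1 CPM in A101D replicates 1 to 4 and at 100.6, 105, 96.3 and 86.6 CPM in 5 to 8. The MeWo libraries had 29.4, 30.3, 29.3 and 30.7 CPM in 1 to 4 and 33.5, 34.6, 37.3 and 31.9 CPM in 5 to 8. Groups did not overlap in either line, but the MeWo gap was 1.14-fold where that of A101D was 3.60-fold. The log2 difference was 1.85 ± 0.05 in A101D (adjusted p = 1.93e-30) and 0.19 ± 0.06 in MeWo (adjusted p = 0.0152). The MeWo call was lost without MeWo replicate 1 (adjusted p = 0.0518) and without MeWo replicate 7 (adjusted p = 0.0945). It was also lost with upper-quartile factors (0.15, adjusted p = 0.0758) and with no low-count filter (adjusted p = 0.179).

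GOT1 (ENSG00000120053, chromosome 10, 99396870 to 99431569), the cytosolic aspartate aminotransferase of the malate-aspartate shuttle, stood at 58.9, 65.7, 58.4 and 56.6 CPM in A101D replicates 1 to 4. Replicates 5 to 8 of A101D had 150, 152, 149 and 132 CPM. MeWo had 86.9, 93.0, 84.3 and 80.5 CPM in 1 to 4 and 88.9, 95.3, 93.6 and 88.1 CPM in 5 to 8. Every A101D library of 5-8 was above every MeWo library, and every A101D library of 1-4 was below them. GOT1 was 2.43-fold higher in A101D replicates 5-8 (log2 difference 1.28 ± 0.05, adjusted p = 1.4e-25), and the MeWo groups overlapped (0.09 ± 0.05, adjusted p = 0.256). Exons of GOT1-DT, an RNA on the opposite strand with 77 to 191 counts per library, cover 19.3% of the GOT1 exon bases, and its log2 difference in A101D was 0.03 ± 0.13 (adjusted p = 0.838).

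The proline enzymes did not follow the others. ALDH18A1 (ENSG00000059573, chromosome 10, 95605929 to 95656706), which turns glutamate into the precursor of proline and ornithine, was at 168, 176, 171 and 172 CPM in A101D replicates 1 to 4 and at 129, 133, 138 and 139 CPM in 5 to 8. In MeWo it was at 165, 169, 156 and 147 CPM in 1 to 4 and at 146, 136, 138 and 136 CPM in 5 to 8. It was the only one of the 8 genes that was lower in replicates 5-8 of both lines by the test, with groups that did not overlap, although MeWo replicates 4 and 5 lay close together. The log2 difference was -0.35 ± 0.04 in A101D (adjusted p = 1.81e-10) and -0.19 ± 0.04 in MeWo (adjusted p = 0.000633). Total counts gave the smallest differences of all alternatives, -0.19 in A101D and -0.14 in MeWo, near the 0.161 by which that scaling moves the A101D median. Both stayed called.

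PYCR1 (ENSG00000183010, chromosome 17, 81932384 to 81942412), a mitochondrial reductase that completes proline, was at 105, 99.4, 110 and 104 CPM in A101D replicates 1 to 4 and at 111, 108, 110 and 108 CPM in 5 to 8. MeWo had 38.4, 36.9, 33.8 and 37.3 CPM in 1 to 4 and 39.1, 31.0, 35.7 and 34.8 CPM in 5 to 8. The groups overlapped within each line, and every A101D library was above every MeWo library. The log2 difference was 0.07 ± 0.04 in A101D (adjusted p = 0.183) and -0.07 ± 0.05 in MeWo (adjusted p = 0.482). Of its exon bases 14.1% are shared with MYADML2 on the same strand, which had 0 to 27 counts per library. The A101D value did pass with median-of-ratios factors (0.14, adjusted p = 0.00525), with total counts (0.23, adjusted p = 4.64e-06) and in a fit on A101D alone (0.11, adjusted p = 0.00984).

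**Figure D2:**
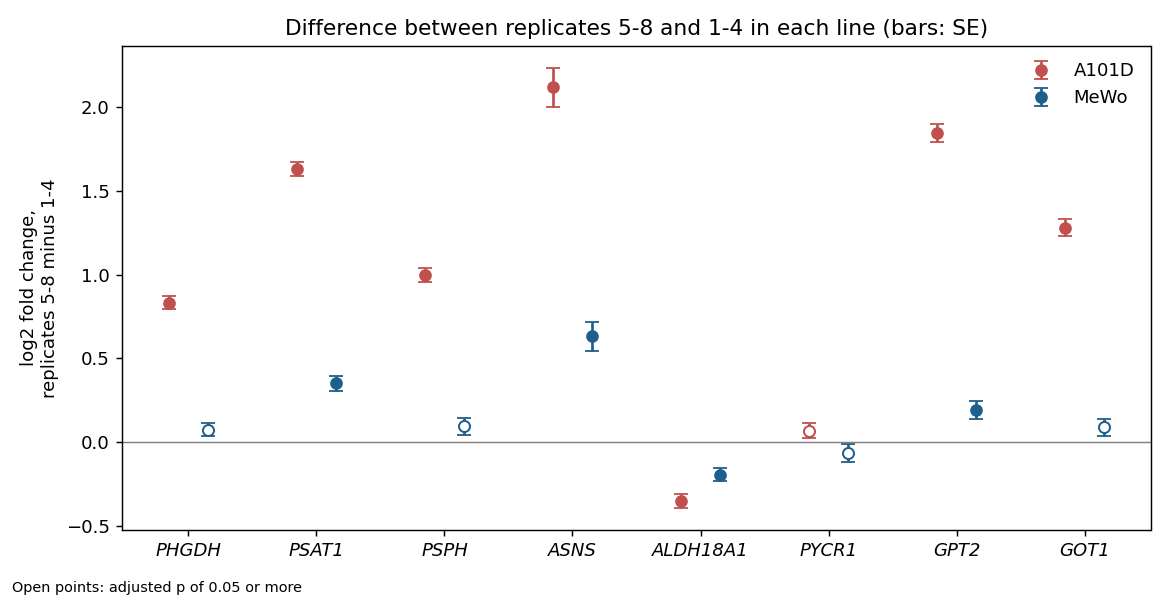
Log2 fold change of each gene between replicates 5-8 and 1-4 (vertical axis) in A101D (red) and MeWo (blue), from the limma fit, with SE bars and open points where the adjusted p is 0.05 or more. The A101D value is above the MeWo value for 7 of the genes and below it for ALDH18A1.

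Whether the lines differed in these contrasts was tested directly, as the MeWo contrast minus that of A101D. By this test 7 of 8 members were called, beside 48.5% of all tested genes, 6 with a negative value and ALDH18A1 with a positive one. Of all called genes 57% had a positive value, and 45.8% with total counts only. The median over the 8 was -1.05, and that over all tested genes was 0.06. GPT2 had the largest value, -1.65 ± 0.08 (adjusted p = 2.89e-22), followed by ASNS (-1.49 ± 0.15, adjusted p = 1.01e-11) and PSAT1 (-1.28 ± 0.06, adjusted p = 1.84e-21). GOT1 gave -1.19 ± 0.07 (adjusted p = 8.73e-19), PSPH -0.90 ± 0.07 (adjusted p = 1.92e-15) and PHGDH -0.76 ± 0.05 (adjusted p = 7.15e-16). The gap of ALDH18A1 was 0.16 ± 0.06 (adjusted p = 0.018), and its call was lost without A101D replicate 2 (adjusted p = 0.159). It was also lost with median-of-ratios factors (adjusted p = 0.281), upper-quartile factors (0.0755) and total counts (0.307). PYCR1 did not pass (-0.13 ± 0.07, adjusted p = 0.11), but passed without MeWo replicate 3 (-0.17, adjusted p = 0.0487) or 5 (-0.18, adjusted p = 0.0238), with median-of-ratios factors (-0.21, adjusted p = 0.0104) and with total counts (-0.24, adjusted p = 0.00262).

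The order of the lines depended on the replicate group for several genes. Among replicates 1-4, MeWo exceeded A101D for PHGDH, ASNS, GOT1 and GPT2 and was lower for PSAT1, PSPH, PYCR1 and ALDH18A1. All 8 were called there, beside 79.1% of all tested genes, with a median log2 difference (MeWo minus A101D) of 0.02 against -0.09 over all tested genes. For 7 members every library of one line lay beyond every library of the other (72.1% of all). Among replicates 5-8, MeWo was lower for PSAT1, PSPH, ASNS, PYCR1, GPT2 and GOT1, higher for PHGDH, and ALDH18A1 did not pass. That makes 7 of 8 called, beside 84.1% of all, with a median of -1.08 against -0.03 over all tested genes, and no overlap for 5 members (79.0% of all). Of the genes called among all tested, 45.3% were higher in MeWo in 1-4 and 48.2% in 5-8, against 66.8% and 65.2% with upper-quartile factors, which raise the median of all genes by 0.50 and 0.492 on the log2 scale. These contrasts use the same libraries as those between replicate groups and are not separate evidence.

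GOT1 changed sides, from 1.44-fold higher in MeWo in replicates 1-4 (log2 difference 0.52 ± 0.05, adjusted p = 1.24e-12) to 1.59-fold lower in 5-8 (-0.67 ± 0.05, adjusted p = 4.6e-17). GPT2 was 1.11-fold higher in MeWo in 1-4 (0.15 ± 0.06, adjusted p = 0.0171, lost without A101D replicate 4 at adjusted p = 0.0508 and with no low-count filter at 0.132) and 2.83-fold lower in 5-8 (-1.50 ± 0.05, adjusted p = 7.26e-29). ASNS was 2.47-fold higher in MeWo in 1-4 (1.31 ± 0.12, adjusted p = 8.99e-13) and 1.13-fold lower in 5-8 (-0.18 ± 0.08, adjusted p = 0.0269), where the sign turned with upper-quartile factors (0.31). This last call was lost without any one of A101D replicates 7 and 8 and MeWo replicates 5 and 8 (adjusted p between 0.0613 and 0.0834), with limma-trend (0.0677), with no low-count filter (0.0775) and with a replicate block (0.111). ENSG00000284707 and ASNSP1, which may share reads with ASNS, were lower in MeWo in both replicate groups. Their log2 differences were -1.37 and -1.62 in 1-4 and -2.65 and -3.90 in 5-8. The part of read assignment in the line order of ASNS was not tested. For GOT1 and GPT2 the order of the lines among replicates 1-4 was not that among 5-8. The size of these differences depended on the scaling. Upper-quartile factors gave 1.02 in 1-4 and -0.18 in 5-8 for GOT1 (limma adjusted p = 0.0027 in 5-8). For GPT2 they gave 0.65 and -1.01.

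PYCR1 was lower in MeWo in both replicate groups, 2.85-fold lower in replicates 1-4 (-1.51 ± 0.05, adjusted p = 6.79e-29) and 3.13-fold lower in 5-8 (-1.65 ± 0.05, adjusted p = 1.17e-30). PSPH was 2.39-fold lower in MeWo in 1-4 (-1.26 ± 0.05, adjusted p = 2.62e-26) and 4.46-fold lower in 5-8 (-2.16 ± 0.05, adjusted p = 3.1e-36). The size of these PSPH differences is uncertain, since its reads in MeWo may be divided with PSPHP1, at 6.77 and 6.65 CPM in the MeWo groups. PSAT1 was 1.24-fold lower in 1-4 (-0.31 ± 0.05, adjusted p = 8.9e-08, but 0.19 with upper-quartile factors) and lower by a log2 difference of -1.58 ± 0.04 in 5-8 (adjusted p = 1.91e-32). The serine genes thus did not share 1 line difference.

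PHGDH went the other way from its pathway partners. It was 1.80-fold higher in MeWo in replicates 1-4 (0.85 ± 0.04, adjusted p = 2.41e-23) and 1.06-fold higher in 5-8 (0.09 ± 0.04, adjusted p = 0.0284), and the last call was lost without any one of A101D replicates 2, 5 and 7 and MeWo replicates 5 and 7 (adjusted p between 0.0578 and 0.111), with median-of-ratios factors (0.05, adjusted p = 0.253) and with total counts (0.02, adjusted p = 0.51). Upper-quartile factors gave larger PHGDH values, 1.35 in 1-4 and 0.58 in 5-8 (limma adjusted p = 2.61e-16). ALDH18A1 was 1.08-fold lower in MeWo in 1-4 (-0.11 ± 0.04, adjusted p = 0.00868, but 0.39 with upper-quartile factors), and this call was lost without A101D replicate 2 (adjusted p = 0.13) or MeWo replicate 4 (adjusted p = 0.0578), and with median-of-ratios factors (adjusted p = 0.0873). In 5-8 its difference was 0.04 ± 0.04 (adjusted p = 0.305), -0.02 with total counts (adjusted p = 0.471) and 0.54 with upper-quartile factors (adjusted p = 6.17e-14).

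**Figure D3:**
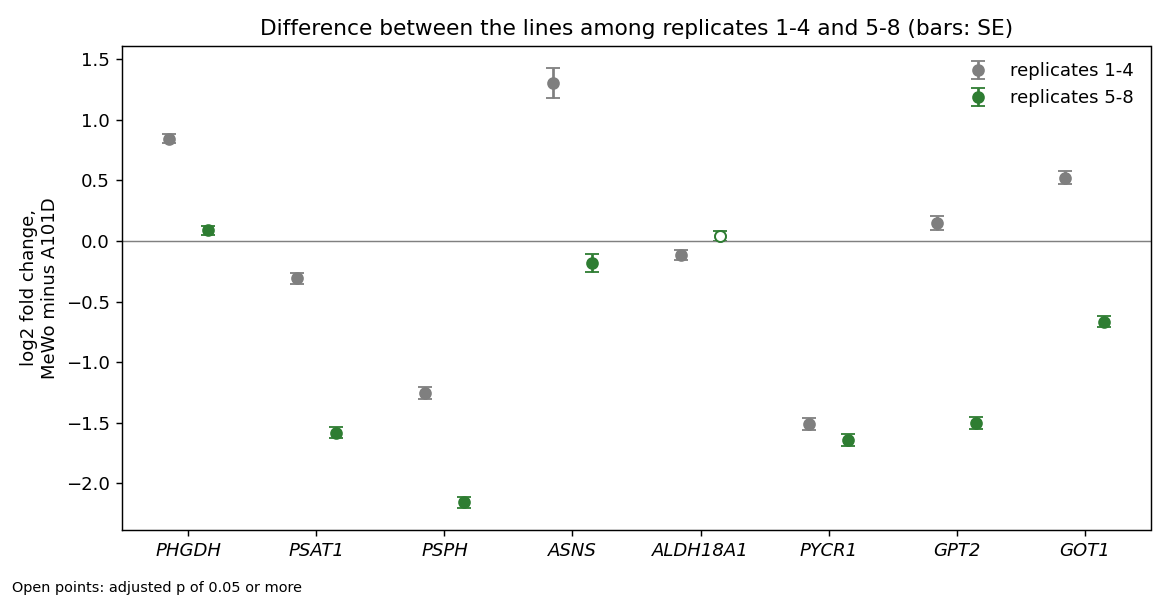
Log2 fold change of each gene between MeWo and A101D (vertical axis) among replicates 1-4 (grey) and 5-8 (green), from the limma fit, with SE bars and open points where the adjusted p is 0.05 or more. GOT1, GPT2 and ASNS lie on opposite sides of 0 in the 2 groups (ASNS not with upper-quartile factors), while PSPH and PYCR1 lie below 0 in both. The level of PSPH in MeWo is uncertain because of its copy PSPHP1.

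Levels of different genes were compared per length, in CPM per 1000 bases of the principal GENCODE transcript. In A101D replicates 1-4 the order was PYCR1 (54.9), ALDH18A1 (51.2), PSAT1 (50.9), PHGDH (48.6), PSPH (41.9), GOT1 (20.5), GPT2 (6.77) and ASNS (0.976). The ranges of PYCR1, ALDH18A1, PSAT1 and PHGDH touched or overlapped their neighbours in that order, and those from PSPH down did not. In A101D replicates 5-8 PSAT1 led (157), followed by PHGDH (86.4), PSPH (83.5), PYCR1 (57.5), GOT1 (49.8), ALDH18A1 (40.1), GPT2 (24.4) and ASNS (4.26), with overlapping ranges only for PHGDH and PSPH.

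In MeWo PHGDH led in both groups, at 87.2 per 1000 bases in replicates 1-4 and 91.9 in 5-8. ALDH18A1 (47.4) and PSAT1 (41.2) followed in 1-4, and PSAT1 (52.6) and ALDH18A1 (41.4) in 5-8, with GOT1 next at 29.5 and 31.3. PYCR1 (19.2 and 18.4) and PSPH (17.6 and 18.7) had overlapping ranges in both groups, above GPT2 (7.52 and 8.61) and ASNS (2.44 and 3.75). The place of PHGDH rests on the chosen length, since its merged exons cover 9217 bases and give 13.6 CPM per 1000 bases in A101D replicates 1-4. The place of ASNS is uncertain because of the reads it shares, and that of PSPH in MeWo because of its copy PSPHP1.

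Other genes of these pathways went both ways. Of 25 other genes for serine and glycine, proline and ornithine, asparagine, aspartate and glutamate, alanine and branched-chain amino acids and arginine, 22 were tested. In A101D 8 were higher in replicates 5-8, 9 were lower and 5 did not pass, with a median of -0.08 (0.08 with total counts only). Of all tested genes 65.3% were called in this contrast, and 29.6% were called higher. In MeWo 1 was higher, 2 were lower and 19 did not pass, with a median of -0.02, beside 13.1% of all tested genes called and 4.59% called higher. With total counts only 4 were higher and 0 lower, with a median of 0.04.

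The 6 of these with the largest called differences in A101D fell into both directions. ASPG, an asparaginase, went from 1.73 ± 0.354 to 0.540 ± 0.0766 CPM (SD, n = 4; log2 difference -1.65 ± 0.22, limma adjusted p = 1.01e-08), while ALDH4A1, which acts in proline breakdown, went from 36.7 ± 3.24 to 18.1 ± 1.73 CPM (-1.02 ± 0.06, adjusted p = 5.08e-19). SDSL, a relative of serine dehydratase, went from 6.86 ± 0.511 to 14.5 ± 0.821 CPM (1.07 ± 0.08, adjusted p = 2.47e-16). BCAT1, the cytosolic branched-chain aminotransferase, went from 128 ± 4.13 to 253 ± 4.10 CPM (0.98 ± 0.04, adjusted p = 1.14e-26).

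BCAT1 was also higher in MeWo replicates 5-8 (0.47 ± 0.10, adjusted p = 0.00105), at a level of only 3.77 to 5.22 CPM in the group means. SDS, serine dehydratase (1.56 ± 0.36, adjusted p = 0.000216), and ASS1, argininosuccinate synthase (1.42 ± 0.36, adjusted p = 0.000722), were higher in A101D replicates 5-8 but stood under 1 CPM in every library. ASS1 was lower in MeWo replicates 5-8 (-1.09 ± 0.35, adjusted p = 0.0332), a call that was lost with total counts only.

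Among 9 listed regulators of the amino acid response, 7 were higher in A101D replicates 5-8, EIF2AK4 (the kinase GCN2, a sensor of uncharged tRNA) was lower and ATF5 did not pass, with a median of 1.58. In MeWo 6 were higher, EIF2AK4 was lower and ATF3 and ATF5 did not pass, with a median of 0.45. The shares of all tested genes called higher were 29.6% in A101D and 4.59% in MeWo. ATF4 itself was at 327 ± 9.14 CPM in A101D replicates 1-4 and 326 ± 9.64 CPM in those of MeWo (SD, n = 4), and in replicates 5-8 its level was 789 ± 16.5 CPM for A101D and 533 ± 26.4 CPM for MeWo. Its log2 difference was 1.27 ± 0.03 in A101D (limma, adjusted p = 5.02e-31) and 0.71 ± 0.04 in MeWo (adjusted p = 5.47e-19). The test of the gap between the lines gave -0.56 ± 0.05 for ATF4 (adjusted p = 4.92e-13). ATF4 was thus called higher in both lines.

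**Figure D4:**
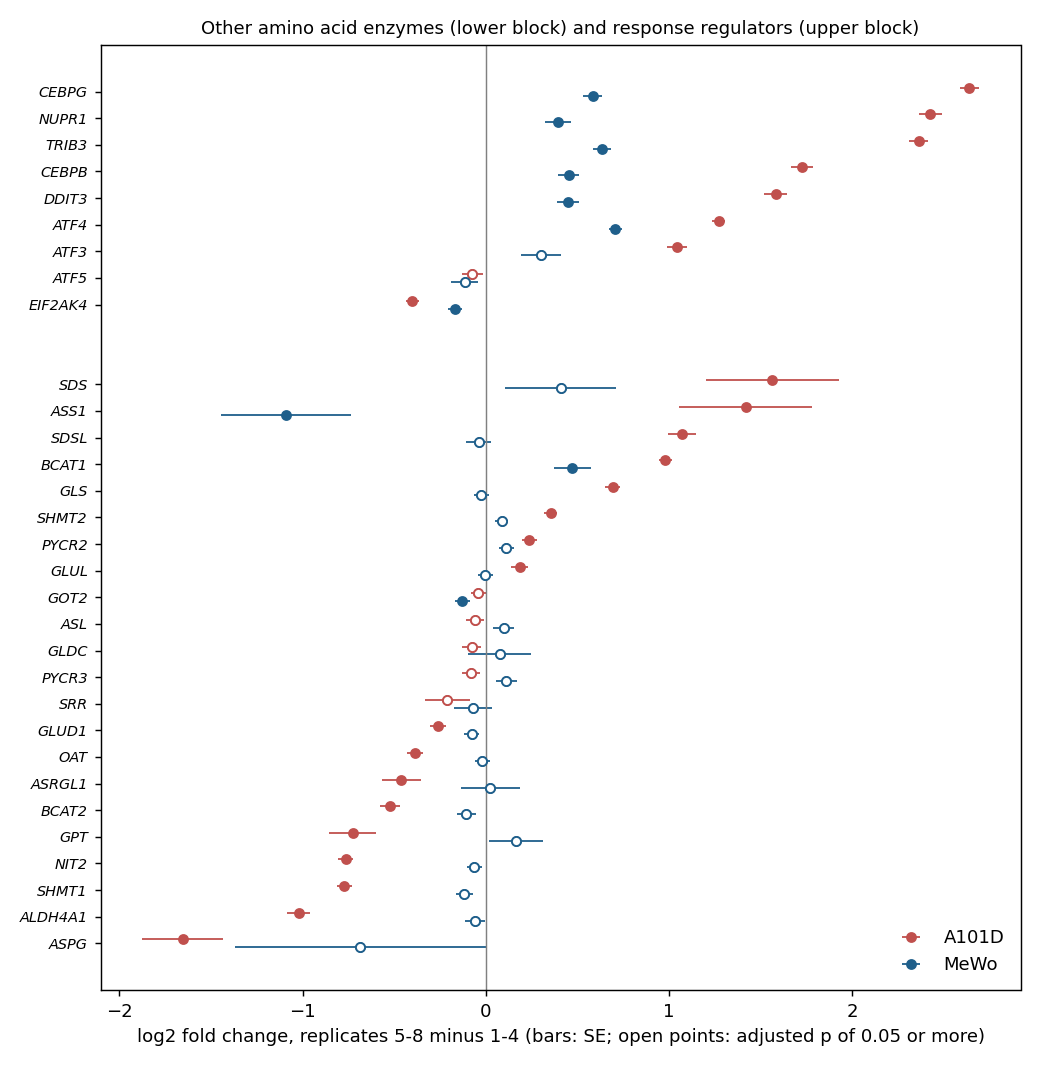
Log2 fold change between replicates 5-8 and 1-4 (horizontal axis) in A101D (red) and MeWo (blue) for 9 regulators of the amino acid response (upper block) and 22 other enzymes of amino acid metabolism (lower block), with SE bars and open points where the adjusted p is 0.05 or more. The enzymes spread to both sides of 0 in A101D, and 7 of the 9 regulators lie to the right of 1 there.

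The tested genes whose log2 CPM followed each member most closely over the 16 libraries were listed among the 10134 genes with a mean of at least 10 CPM, as a description. The closest were SLC1A4 for PHGDH (Pearson r = 0.994), PHLDA1 for PSAT1 (0.997), PELI1 for PSPH (0.999) and RNF6 for ASNS (0.987). For the others they were VEGFA for GPT2 (0.996), CTTNBP2NL for GOT1 (0.993), DEGS1 for ALDH18A1 (0.986) and SEZ6L2 for PYCR1 (0.998). The libraries fall into 4 groups by line and replicate numbers, so these values rest mainly on 4 group levels.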

How the data were processed

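RNA of 16 libraries was measured with a stranded total RNA kit. The authors deposited 1 table of whole-number counts per gene for each line, per the file headers, with identifier and count joined in 1 cell, which were separated. Reads were trimmed, aligned and counted with Trimmomatic 0.39-1, STAR 2.7.1a and featureCounts 2.0.0 on GRCh38, per the submitters' processing notes. The sources used here give no strand setting and no annotation release. Symbols came from a gene name table and positions from GENCODE v29.

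From these counts, CPM and log2 differences were computed. Genes with at least 0.298 CPM (10 counts at the median depth) in 4 libraries and 15 counts in all were tested. Libraries were scaled with TMM factors (trims of 30% and 5%) and fitted together with limma 3.58.1 (R 4.3.3), voom weights and robust moderation, with 1 mean for each line and replicate group. P-values are two-sided, adjusted after Benjamini and Hochberg over 21569 genes, with a threshold of 0.05. The fit was tested on simulated data in which most genes were unchanged, so that test could not judge the choice of scaling. Members, lists and replicate groups were chosen with earlier results of these data known, so the tests are not independent evidence. Besides the 8 members, values are given for the 6 listed enzymes with the largest called difference in A101D, for ATF4, for copies of members and for the genes most correlated with each member. Alternatives were 3 other scalings, 2 other filters, limma-trend, fits on 1 line or replicate group, a replicate block and leaving out each library. A quasi-likelihood count test, planned only if the deposited columns passed as counts, was not run: with identifier and count in the same cell they did not pass, although the separated values would allow that test.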

Additional observations from a re-analysis of the deposited data

Results flagged for a closer look

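In 3 of the 32 gene and group combinations with 4 libraries, 1 library lay farther from the others than Dixon's 95% limit, where chance flags about 1 in 20. PSPH was at 34.4 CPM in MeWo replicate 4, with a gap of 0.832 of the group's range below the nearest library. ALDH18A1 was at 146 CPM in MeWo replicate 5, with a gap of 0.854 above the nearest. GOT1 was at 132 CPM in A101D replicate 8, with a gap of 0.844 below the nearest.

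The difference between replicates 5-8 and 1-4 was not the same in both lines for 7 genes, by limma's test of the MeWo difference minus that of A101D. On the log2 scale this was -0.76 for PHGDH, -1.28 for PSAT1 and -0.90 for PSPH. It was -1.49 for ASNS, -1.65 for GPT2 and -1.19 for GOT1. For ALDH18A1 it was 0.16, a value whose call was lost under 3 other scalings.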

How the results depend on the processing

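Of 936 values of single members under the alternatives, 892 kept their direction and their side of the threshold, 27 kept the direction but no longer passed, 13 newly passed and 4 changed sign. The sign changes were those of MeWo minus A101D with upper-quartile factors for PSAT1 (0.19) and ALDH18A1 (0.39) in replicates 1-4 and for ASNS (0.31) in replicates 5-8, and with total counts for ALDH18A1 in 5-8 (-0.0225, not called in either). The number of members called between the MeWo replicate groups was 4, 7 with total counts only, and 3 to 7 over all alternatives. In A101D it was 7 to 8, for the gap between the lines 6 to 8, and for the line differences 7 to 8 in replicates 1-4 and 5 to 8 in 5-8. Over the same alternatives, 1892 to 3756 of all tested genes were called in MeWo and 12307 to 15447 in A101D. For the gap between the lines it was 9724 to 10903. For the line differences it was 14117 to 20188 in 1-4 and 14652 to 23719 in 5-8. The number of genes tested varied with the filter and the libraries used. The cause of these changes was not tested. Same-numbered libraries of both lines deviated from their group means with correlations of -0.0201 to 0.077, so the numbers were not taken to pair them. With a replicate block 10559 genes differed between the lines in the replicate group contrast (10453 without), and 17065 and 18030 between the lines in replicates 1-4 and 5-8. Under the block, ASNS in 5-8 lost its call (adjusted p = 0.111). A block could not be fitted between replicate groups of 1 line, which share no numbers. The quasi-likelihood count test planned as an alternative was not run. Depth limited ASNS most, with 63 to 82 counts per library in A101D replicates 1-4.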
